A study of Mus musculus with 74 samples.

Results

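The libraries described here are those of 44iN cells kept in doxycycline (Dox) and of Tg2a cells, the wild type, in serum (FCS), both grown with LIF. They were chosen by their labels and number 5 of the 35 RNA-seq libraries with a column in the count table, 2 of 44iN cells with Dox and 3 of Tg2a cells, in a series of 74 samples. The series asked how Nanog acts in mouse embryonic stem (ES) cells, by raising it with a CRISPR activator and by removing it from cells that depend on a transgene. The comparison described here asks how closely cells without their own Nanog match the wild type while the transgene is on, and which genes stay different.

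44iN is a single ES cell line, made from E14Tg2a cells, in which both Nanog alleles are inactivated and Nanog comes only from a transgene that Dox switches on. It was kept in Dox (1 µg/mL), FCS and LIF. Tg2a is short for E14Tg2a, the parental wild-type line, in FCS and LIF without Dox. The line, the Nanog alleles, the transgene and Dox therefore changed together between the groups, and their effects cannot be told apart. Other libraries are shown beside these only where they bear on a gene. They are 44iN cells 24 h after Dox removal (2 libraries) and after long-term culture without Dox (2 libraries), and SunTag cells (clones C1 and C2 of E14Tg2a carrying the Nanog guide RNA of a CRISPR activator) with LIF, uninduced (3 libraries) or induced with Dox (2 libraries). The paper states that the long-term 44iN cells were grown under G418 selection, and the part of this drug was not tested. Nothing in the labels ties replicates to separate derivations or days, so p-values measure only the spread between these libraries, which may be technical.

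Nanog is a homeodomain transcription factor of the naive pluripotency network, in which it works beside Oct4 (encoded by Pou5f1), Sox2 and Esrrb. It keeps ES cells self-renewing, and in the early embryo it marks the epiblast and opposes the primitive endoderm, the extraembryonic layer driven by Gata6. Wild-type ES cells in serum are a mixture in which Nanog fluctuates and a minority of cells express endoderm or primed genes.

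The values called normalised counts are the RSEM estimated counts of each gene divided by the DESeq2 size factor of the library, as deposited, and they are not adjusted for gene length, so levels are compared between libraries and not between genes. Estimated counts summed to 37974444 and 19260874 in 44iN cells with Dox and to between 48926321 and 92244655 in Tg2a cells. The libraries differed in how values depended on the GC content of genes. Between genes of 39.7% and 58.9% GC the level changed by −1.21 and 0.65 (log2) in the 44iN libraries and by −0.43, −0.06 and 1.04 in the Tg2a libraries, so this trend did not follow the groups but widened the spread within them. The comparison of 44iN cells with Dox and Tg2a cells was therefore also fitted with an offset that removes the trend. The response of SunTag cells to Dox was fitted without it. Of the marker lists, ES cell markers summed to between 96690 and 119178 normalised counts in 44iN cells with Dox and to between 113298 and 134997 in Tg2a cells. Primitive endoderm markers summed to between 137 and 368 against between 2195 and 2826, with no marker at 0. Trophoblast markers summed to between 375 and 423 against between 123 and 217, mesendoderm markers to between 9.33 and 17.8 against between 43.0 and 129 with Gsc at 0 in both 44iN libraries, neural markers to between 510 and 1041 against between 874 and 1305, and feeder fibroblast markers to between 162 and 196 against between 134 and 474. In bulk RNA fewer cells of a type and less RNA per cell cannot be told apart, and the part of these cells in the results below was not tested.

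Nanog itself (ENSMUSG00000012396, chr6:122657507-122664651 in mm9) checked the labels. It had 13366 and 18394 normalised counts in the 2 libraries of 44iN cells with Dox, against 19460, 20261 and 19420 in the 3 libraries of Tg2a cells. Both 44iN libraries lay below all Tg2a libraries, at 15880 ± 3555 (SD, n = 2) against 19714 ± 474 (SD, n = 3), or 80.6% of the wild-type mean. The log2 fold change of 44iN with Dox over Tg2a was −0.41 (95% interval −0.93 to 0.11, standard error 0.22) with an adjusted p of 0.423 by edgeR's quasi-likelihood test, corrected over all genes by the method of Benjamini and Hochberg, and its interval lay within a 2-fold difference. Without Dox Nanog had 706 and 739 normalised counts after 24 h and 276 and 228 after long-term culture, and with the activator induced 93813 and 75226. Which part of the Nanog mRNA the transgene carries is not given in the sources used here, and gene counts do not separate it from reads of the inactivated alleles.

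The other genes of the pluripotency network were read as a list and one by one. None of the 31 tested genes of the core and naive pluripotency list passed the test (edgeR's quasi-likelihood test, adjusted p under 0.05, beside 1.38% of all genes tested), 8 had an unadjusted p under 0.05 (beside 16.5%) and DESeq2 called 3 (beside 7.15%). The median log2 fold change of the list was 0.05, beside −0.01 over all genes tested. Of the 31 genes 18 had a 95% interval within 2-fold (beside 41.4% of all genes) and 13 one that crossed that limit. In 8 genes both 44iN libraries lay above all Tg2a libraries and in 6 below, beside 18.4% and 16.6% of all genes. With the offset for GC content 21 had an interval within 2-fold (beside 62.5% of all genes). With it 3 were called (beside 10.5% of all genes), Tbx3 higher and Tdh and Dppa3 lower. Tdh, a threonine dehydrogenase, is listed under 2 identifiers and lies within a segment of chromosome 14 described below.

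Pou5f1 had 7843 and 19491 normalised counts in 44iN cells with Dox against 9134, 8862 and 19043 in Tg2a cells, and Sox2 had 20843 and 10709 against 12521, 13657 and 11282. Both overlapped between the groups, and the 2 libraries of 44iN cells differed more from each other than the group means did. Esrrb, an orphan nuclear receptor and one of the main targets of Nanog, had 10695 and 17962 against 10651, 10616 and 14626, at a log2 fold change of 0.16 (95% interval −0.54 to 0.87). The long-term 44iN cells, shown for scale, had 3857 and 4339.

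Klf4, a LIF target, had 3803 and 2566 normalised counts against 3785, 3705 and 4053, for a log2 fold change of −0.37, and Zfp42 (Rex1) had 22724 and 18220 against 20566, 17768 and 20672, for −0.04. Tfcp2l1, a naive factor, had 23934 and 19646 against 16375, 17683 and 14129, for 0.34, and Prdm14, which represses primed genes, had 764 and 802 against 687, 551 and 719, for 0.17. The intervals of these 4 genes all lay within 2-fold. Prdm14 had 252 and 284 normalised counts 24 h after Dox removal and 133 and 132 in long-term culture, whereas with Dox Prdm14 and Esrrb both lay within 2-fold of wild type.

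Dppa3 (Stella), a germ cell and naive gene that is variable between ES cells, was the list's lowest value. It had 202 and 60.7 normalised counts against 511, 581 and 484, with no overlap and a log2 fold change of −2.08 (adjusted p = 0.113, standard error 0.51, by edgeR's quasi-likelihood test, and 0.017 with the offset for GC content). Dppa5a, an RNA-binding protein and one of the ES cell markers, had 21218 and 34402 against 40966, 44893 and 49954, again without overlap, for −0.80 (adjusted p = 0.226, edgeR). None of the 6 ES cell markers passed this test, 1 had an unadjusted p under 0.05, DESeq2 called 0, and their median log2 fold change was 0.00.

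Over the whole transcriptome 14806 genes were tested, those that reached 10 normalised counts in all libraries of one group or of both. edgeR's quasi-likelihood test called 204 of them at an adjusted p under 0.05, which is 1.38%, with 76 higher in 44iN cells with Dox (0.513%) and 128 lower (0.865%). The median of the called log2 fold changes was 2.69 for the higher and −2.91 for the lower genes (−2.80 with the 22 genes at no more than 3 counts in both 44iN libraries set at that limit), the smallest difference called was 1.04, and 183 of the 204 had an interval wholly past 2-fold. In all 204 the groups did not overlap, beside 18.4% of tested genes with both 44iN libraries above all Tg2a libraries and 16.6% with both below. The smallest adjusted p was 0.00831. In all 2436 genes, the 204 included, had an unadjusted p under 0.05. The calls depended on single libraries. Without Tg2a replicate 1 or replicate 2 edgeR called 0 genes (1957 and 1537 at an unadjusted p under 0.05) and so none of the members counted below by this test. Without Tg2a replicate 3 it called 33 (18 higher and 15 lower), without 44iN replicate 2 it called 45 (25 and 20), and without 44iN replicate 1 it called 135 (45 and 90).

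A gene that missed the test is not thereby the same in both groups, so the intervals were read as well. The 95% interval of the difference lay within 2-fold for 6129 genes (41.4% of those tested), past 2-fold for 400 (2.7%) and across that limit for 8277. With the offset for GC content, which lowered the spread between replicates, 9232 of 14762 genes lay within 2-fold (62.5%) and 491 past it (3.33%), and 1544 genes were called (10.5%), 595 higher (4.03%) and 949 lower (6.43%). All 204 genes called without the offset were among them. The median absolute log2 fold change of all genes was 0.302.

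The same distance can be read from library to library, as the root mean square difference over 15276 genes of log2 CPM (counts scaled to equal library size) after removal of the GC trend. This is a description without a test, since pairs share libraries. Tg2a libraries differed from each other by 0.43 to 0.48 and the 2 libraries of 44iN cells with Dox by 0.70. Between the groups the difference was 0.78 to 0.94 (Spearman's rho across genes 0.965 to 0.976), 44iN cells 24 h without Dox lay 0.87 to 0.97 from Tg2a cells, the long-term cells 0.69 to 0.80, and uninduced SunTag cells, which have their own Nanog, 0.70 to 1.14. Library distance thus did not order the states by their Nanog level, and the distance of 44iN cells with Dox from Tg2a lay within the range of that of uninduced SunTag cells. When uninduced SunTag cells were fitted together with both groups and the offset for GC content, edgeR called 1103 of 15228 genes between 44iN cells with Dox and Tg2a cells (7.24%, median absolute log2 fold change 0.298) and 3835 of 15227 between uninduced SunTag and Tg2a cells (25.2%, 0.414). The 2 contrasts share the Tg2a libraries, and the difference between them was not tested. Fitted with the other 44iN states and the same offset, 16.2% of genes were called for cells with Dox, 20.8% for cells 24 h without it and 20.6% for the long-term cells, each against the same Tg2a libraries.

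**Figure D1:**
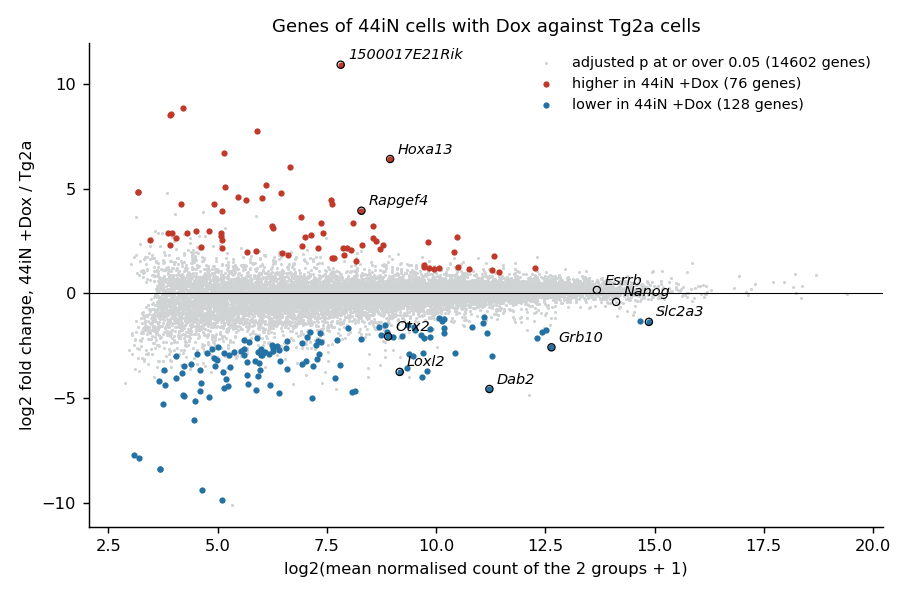
Each point is one of the 14806 tested genes, with its mean level on the horizontal axis and the log2 fold change of 44iN cells with Dox over Tg2a cells on the vertical axis, and coloured points passed edgeR's test. The 76 higher and 128 lower genes lie away from a cloud centred on 0, and Nanog, at −0.41, lies within the cloud.

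The genes that were higher with the transgene on were led by one gene cluster. Hoxa13, a homeobox gene that patterns the posterior end of the embryo and the distal limb, had 1055 and 896 normalised counts in 44iN cells with Dox against 7.97, 13.3 and 10.7 in Tg2a cells, an 85.0-fold difference (log2 fold change 6.41, standard error 0.33, adjusted p = 0.00831, edgeR's quasi-likelihood test). In 44iN cells it had 9.60 and 32.5 normalised counts 24 h after Dox removal and 1.92 and 3.41 in long-term culture, so its high level was seen with Dox only. Evx1, a homeobox gene of the posterior primitive streak at the end of the same cluster, had 92.1 and 173 against 5.31, 2.89 and 2.09 (log2 fold change 5.19). It was at 0 counts in both libraries 24 h after Dox removal.

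Hoxa10 had 243 and 496 normalised counts against 17.5, 11.6 and 17.3 (log2 fold change 4.47), and Hoxa11 had 191 and 555 against 18.6, 18.5 and 16.4 (4.29). Their antisense neighbour Hoxa11as had 43.6 and 201 against 5.31, 2.89 and 5.96 (4.53), on reads counted by strand. Hoxa9 had 31.7 and 94.9 against 3.19, 4.63 and 3.58 (3.93), and the noncoding genes Gm15053 (66.4 and 166) and 5730457N03Rik (36.7 and 99.5) stood at 0 to 2.68 in Tg2a cells. These 8 genes are all the tested genes between chr6:52173099-52268372, a stretch of 95.3 kb, and all 8 were called higher. The bounds are the ends of these called genes. Hoxa13, Evx1, Hoxa9, Hoxa11as, Gm15053 and 5730457N03Rik had under 10 normalised counts in at least 1 Tg2a library. They were tested only through their level in 44iN cells with Dox, so the filter partly set the count of 8 in 8. No other run of called genes, joined when less than 100 kb apart, held more than 3. Of the Hox and Evx list 11 of 42 genes were expressed enough to be tested and 5 rose (beside 0.513% of all genes), all from this stretch, with a list median of 1.75. Hoxa7, Hoxa9, Hoxa13 and Evx1 were tested only through the 44iN libraries, so the filter favoured higher values in this count and median. The tested members outside these 5 did not pass the test. Of the 11, 10 lay above 0 and the remaining 1 at −0.33. Hoxa7 (26.8 and 48.2 against 8.50, 12.2 and 10.1) passed it with the offset for GC content, and Hoxb9, Hoxc13, Hoxd8 and Hoxd13 from the other clusters lay between 0.04 and 0.79 (log2). The other 31 members were too low to be tested.

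**Figure D2:**
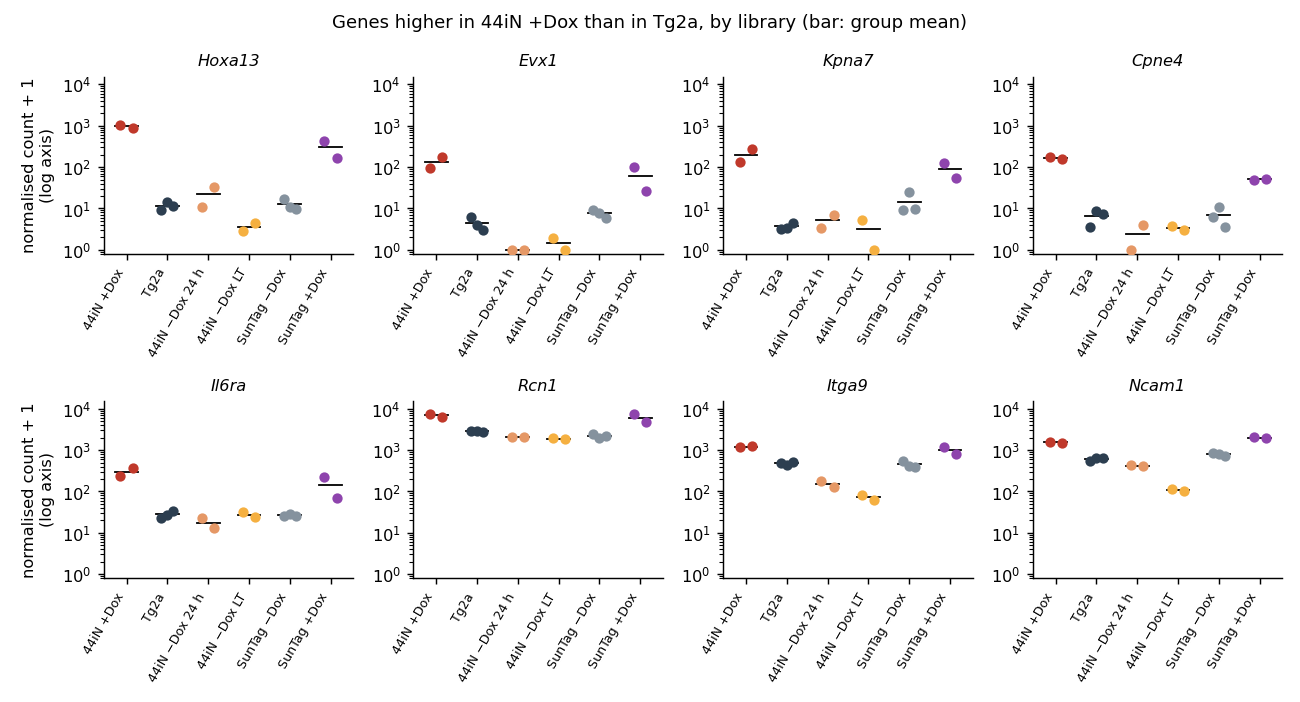
Normalised counts plus 1 (log axis) of 8 higher genes in each library, by group, with bars at group means. Hoxa13 stands near 1000 only in 44iN cells with Dox and between 167 and 435 in induced SunTag cells.

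Outside the Hoxa stretch, Kpna7, an importin alpha known from oocytes, had 131 and 266 normalised counts against 2.12, 2.32 and 3.58 (log2 fold change 6.02, standard error 0.50, adjusted p = 0.0251, edgeR's quasi-likelihood test). Cpne4, a calcium-dependent membrane-binding protein, had 176 and 159 against 2.66, 7.53 and 6.26 (4.81), and Il6ra, the ligand-binding subunit of the interleukin 6 receptor, had 237 and 361 against 22.3, 26.1 and 33.4 (3.35). Rapgef4, a cAMP-activated exchange factor for Rap1, had 750 and 428 against 52.0, 27.2 and 28.6 (3.94), and Pkd2l1, an ion channel subunit, had 125 and 317 against 11.7, 16.2 and 20.9 (3.64). The rule that named these genes required both 44iN libraries to lie above all Tg2a libraries, so that is no added result. Kpna7 and Cpne4 were tested only through the 44iN libraries. Among genes of high level, named after their values were seen, Rcn1, a calcium-binding protein of the endoplasmic reticulum, had 7622 and 6409 against 2889, 2957 and 2815 (1.18), and Itga9, an integrin subunit, had 1189 and 1229 against 492, 435 and 503 (1.25). Ncam1, a cell adhesion molecule and the called member of the neural list, had 1613 and 1463 against 545, 632 and 659 (1.23), and Tfap2a, the called member of the trophoblast list, had 204 and 198 against 46.2, 27.2 and 45 (2.24).

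The SunTag libraries give a separate reading of these genes, since they took no part in the comparison. There Dox induced the activator, and Nanog rose from between 21940 and 29487 normalised counts to 75226 and 93813. As Dox was added as well, Dox and Nanog changed together in both comparisons. Of the 76 higher genes 63 were tested in SunTag cells, with a median log2 fold change on induction of 1.64, and 58 were above 0 (92.1%). The induced libraries lay above all uninduced ones in 48 (76.2%, beside 13.8% of all 14934 genes tested there) and below in 0 (beside 12.6%). By edgeR's quasi-likelihood test 0 of the 14934 genes passed in SunTag cells, 1137 had an unadjusted p under 0.05, and 44 of the 63 did. This fit had no term for clone, so differences between C1 and C2 stayed in its spread. The paper, which used DESeq2, does report genes that respond to Dox in SunTag cells with LIF. Hoxa13 had 435 and 167 normalised counts in induced and 16.1, 10.1 and 8.74 in uninduced cells, and Kpna7 127 and 53.8 against 8.03, 23.5 and 8.74. Genes were tested in SunTag cells if they reached 10 normalised counts in all libraries of either group. Hoxa13 and Kpna7 did so only in the induced libraries, so the filter favoured higher values in the median and shares of the 63 genes. Rcn1 had 7382 and 4798 against 2463, 1973 and 2197. Rapgef4 and Tfap2a did not follow, with 18.7 and 8.07 against 64.3, 16.8 and 18.7 for Rapgef4 and with 103 and 103 against 96.4, 174 and 105 for Tfap2a.

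The promoters of the leading genes differ in CpG content, and 2 are shown for that contrast, 250 bases up to the annotated start in mm9, 5′ to 3′, with each CG in capitals. The Hoxa13 promoter (chr6:52210875-52211124, minus strand) holds 35 CG, more than 95.1% of the promoters of tested genes, and that of Dab2, which leads the lower genes described next, holds 1 (chr15:6249538-6249787, plus strand, at the 2.19 percentile).
Hoxa13: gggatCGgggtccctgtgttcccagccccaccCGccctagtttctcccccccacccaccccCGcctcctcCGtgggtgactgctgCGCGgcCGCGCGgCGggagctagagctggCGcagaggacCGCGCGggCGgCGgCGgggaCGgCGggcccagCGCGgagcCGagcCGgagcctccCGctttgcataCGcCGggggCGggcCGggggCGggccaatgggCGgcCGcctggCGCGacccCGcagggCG
Dab2: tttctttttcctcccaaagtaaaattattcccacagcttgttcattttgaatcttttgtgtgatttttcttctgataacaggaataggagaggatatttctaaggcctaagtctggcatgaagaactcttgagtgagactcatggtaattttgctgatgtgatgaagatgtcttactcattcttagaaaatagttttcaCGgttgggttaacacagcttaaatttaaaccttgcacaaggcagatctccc
Over all genes the median promoter held 13 CG (14761 genes with a promoter), beside 6 for the 76 higher and 9 for the 128 lower genes, and 2.19%, 6.58% and 1.56% held none, as a description of these letters only.

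Lower genes were led by the primitive and visceral endoderm. Of the 20 tested genes of that list 6 fell (Dab2, Pdgfra, Foxa2, Col4a1, Col4a2 and Lamb1), 0 rose, and the list's median log2 fold change was −3.49 (−3.30 with Foxa2 and Amn, at no more than 3 counts in both 44iN libraries, set at that limit), beside −0.01 over all genes. In 18 of the 20 both 44iN libraries lay below all Tg2a libraries, beside 16.6% of all genes. With the offset for GC content 16 of the 20 were called lower, beside 6.43% of all genes. Members such as Foxa2, Gata4 and Amn were tested only through the Tg2a libraries, so the filter favoured lower values in these counts and the median. This list was chosen with results of these data known, and its marker sums moved with the groups as given above, 137 to 368 against 2195 to 2826.

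Dab2, an endocytic adaptor that the primitive endoderm makes in quantity, had 340 and 65.3 normalised counts in 44iN cells with Dox against 5888, 3880 and 3902 in Tg2a cells, a 23.7-fold difference (log2 fold change −4.57, with standard error 0.72 and adjusted p = 0.0466, edgeR's quasi-likelihood test). Pdgfra, the receptor that marks primitive endoderm cells, had 153 and 60.7 against 1255, 1015 and 1293 (−3.56, adjusted p = 0.0331, edgeR). Foxa2, an endoderm transcription factor, had 2.97 and 1.56 against 58.4, 31.3 and 46.2, for which no fold is given. In each of the 3 genes the groups were far apart, although the first 44iN library lay above the second.

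The other 3 called members encode basement membrane chains. Col4a1 had 738 and 442 normalised counts against 4467, 2888 and 5645 (log2 fold change −2.97), Col4a2, which starts beside it, had 154 and 118 against 1495, 987 and 2451 (−3.69), and Lamb1, a laminin chain, had 3046 and 2569 against 10551, 7283 and 8702 (−1.75). Several other genes of the lineage missed the test, and in these the 2 libraries of 44iN cells also differed from each other. Gata4 had 30.7 and 3.11 against 441, 327 and 438 (−4.57, adjusted p = 0.0517, edgeR), and Gata6 had 99.1 and 14 against 618, 571 and 734 (−3.56, adjusted p = 0.0814, edgeR). Cubn, the visceral endoderm receptor cubilin, had 535 and 94.9 against 12650, 7313 and 5733 (−4.84, adjusted p = 0.0535, edgeR). Hhex (0.08) and Lamc1 (−0.27) were the 2 members whose interval lay within 2-fold.

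In the other states the endoderm genes did not stay low. Dab2 had 538 and 91.7 normalised counts 24 h after Dox removal, close to the cells with Dox, and 6735 and 4488 after long-term culture, above or within the range of Tg2a cells. Pdgfra likewise had 293 and 115 and then 3551 and 2258. In the fit of the 4 groups with the offset for GC content, which shares the Tg2a libraries, 15 members were lower than Tg2a 24 h after removal (beside 10.7% of all genes) with a list median of −2.45, and 0 were lower and 1 was higher in long-term culture (beside 10.4% and 10.2%), with a median of 0.28. Uninduced SunTag cells, with their own Nanog, had 999, 1148 and 524 normalised counts of Dab2, between the groups. The list's median there against Tg2a was −1.45, in the fit with SunTag cells and without the offset. The level of these genes therefore also differed between cultures that keep their own Nanog.

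**Figure D3:**
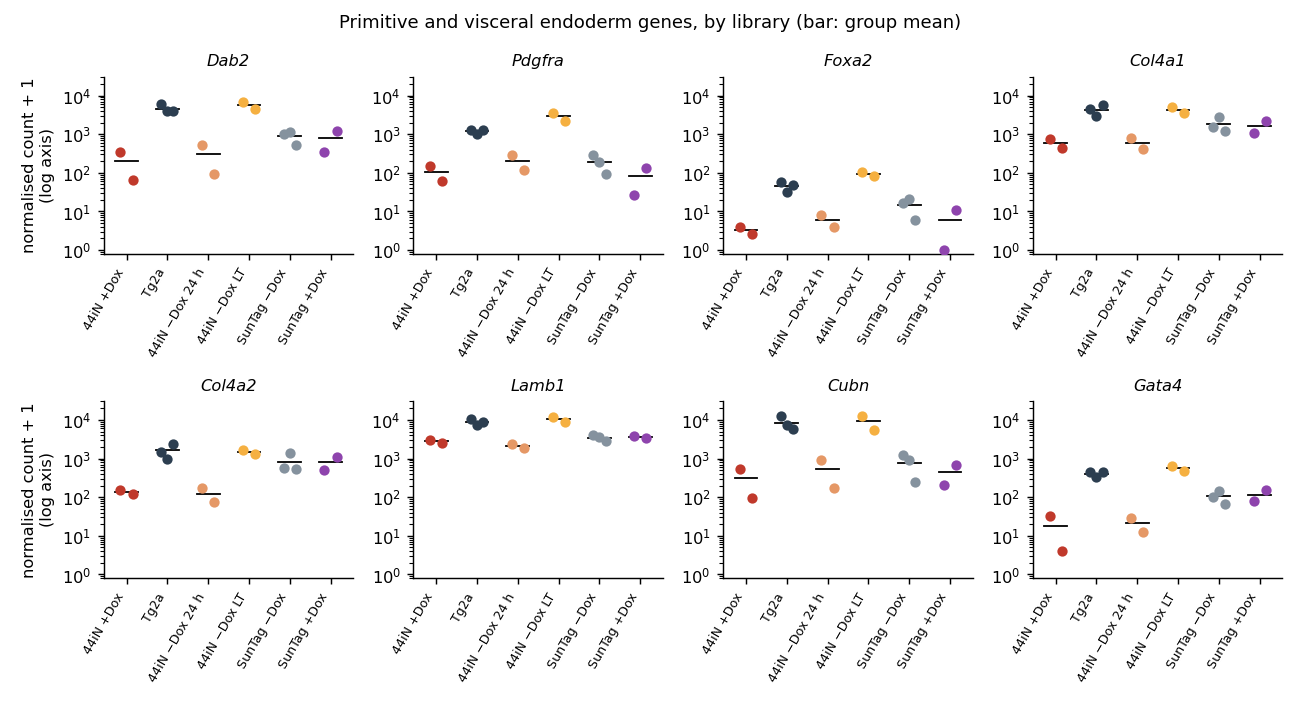
Normalised counts plus 1 (log axis) of 8 primitive and visceral endoderm genes in each library, by group, with bars at group means. 44iN cells with Dox and 24 h after its removal lie low, Tg2a and long-term 44iN cells lie high (3880 to 6735 for Dab2), and SunTag cells lie between them.

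Otx2, the transcription factor of formative and primed cells, was the called gene of its list with the highest level. It had 218 and 171 normalised counts against 865, 743 and 672, a 4.17-fold difference (log2 fold change −2.06, standard error 0.26, adjusted p = 0.0339, edgeR's quasi-likelihood test). After Dox removal it had 1380 and 1769 (24 h) and 1336 and 2025 (long term), above all Tg2a libraries, and in SunTag cells 308 and 166 with and 908, 704 and 740 without induction. Otx2 lies at chr14:49277354-49287319, within the segment of chromosome 14 described below. Car14, a carbonic anhydrase, was the list's other called gene, with 7.93 and 4.67 against 65.9, 52.7 and 47.4 (−3.17). The list's median was −0.53 over 22 tested genes, and Fgf5, the classical primed marker, had 10.9 and 3.11 against 31.9, 44.6 and 31.3 (−2.34, adjusted p = 0.0963, edgeR).

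Of the Nodal pathway, both Lefty genes were lower. Lefty1 and Lefty2, secreted Nodal inhibitors that neighbour each other on chromosome 1, had 27.7 and 54.4 against 377, 417 and 411 normalised counts (log2 fold change −3.41) and 147 and 187 against 1021, 1281 and 1186 (−2.90, standard error 0.25, adjusted p = 0.0251, edgeR's quasi-likelihood test). Nodal itself had 571 and 1044 against 569, 719 and 1171 (−0.12). Of 29 tested genes of the Nodal and BMP list 3 fell, both Lefty genes among them, and 0 rose (beside 0.865% and 0.513% of all genes). The list median was −0.12, and 7 members lay above and 7 below all Tg2a libraries (beside 18.4% and 16.6% of all genes). In long-term 44iN cells Lefty1 had 636 and 696 normalised counts, above Tg2a.

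The list of glycolysis and hypoxia genes held 2 called genes. Slc2a3, the glucose transporter GLUT3, had 18151 and 17153 normalised counts against 37364, 47367 and 42530 (log2 fold change −1.36), and Pgk1, phosphoglycerate kinase, had 15536 and 15331 against 35453, 39882 and 34315 (−1.34, adjusted p = 0.044, edgeR's quasi-likelihood test). These 2 of 25 tested genes fell and 0 rose, beside 0.865% and 0.513% of all genes. The list's median was −0.88, 24 members were below 0, and with the offset for GC content 12 were lower and 1 higher, beside 6.43% and 4.03%. Hk2 (−0.27) and Gapdh (−0.28) did not pass the test. Slc2a3 stayed low in all 44iN states (16657 and 15676, then 20805 and 19292), whereas Pgk1 had 37630 and 38096 in long-term culture.

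The largest decreases by size lay outside these lists. Gbp2, an interferon-inducible GTPase, had 12.9 and 4.67 normalised counts against 168, 386 and 271 (log2 fold change −4.98), and Tfec, a transcription factor of the MiT family, had 9.91 and 1.56 against 207, 155 and 128 (−4.78). Car4, a membrane-bound carbonic anhydrase, had 31.7 and 7.78 against 490, 491 and 565 (−4.73), and Nostrin had 36.7 and 7.78 against 731, 420 and 481 (−4.64). All 4 had between 173 and 1469 in long-term 44iN cells without Dox. Habp2, a serine protease, Klb, a coreceptor of endocrine FGFs, and Lrrk1, a kinase, fell too, with log2 fold changes of −4.39, −4.03 and −3.95.

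The lower genes were read in SunTag cells in the same way. Of the 128 lower genes 111 were tested there, with a median log2 fold change of −0.25. Induced libraries lay below all uninduced ones in 20 (18%, beside 12.6% of all genes) and above in 10 (9.01%, beside 13.8%). Otx2 and Lefty1 were among those with the larger differences, at −1.74 and −2.04, and Dab2 was at −0.16. The share of the higher genes that followed and that of the lower genes were not compared by a test.

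**Figure D4:**
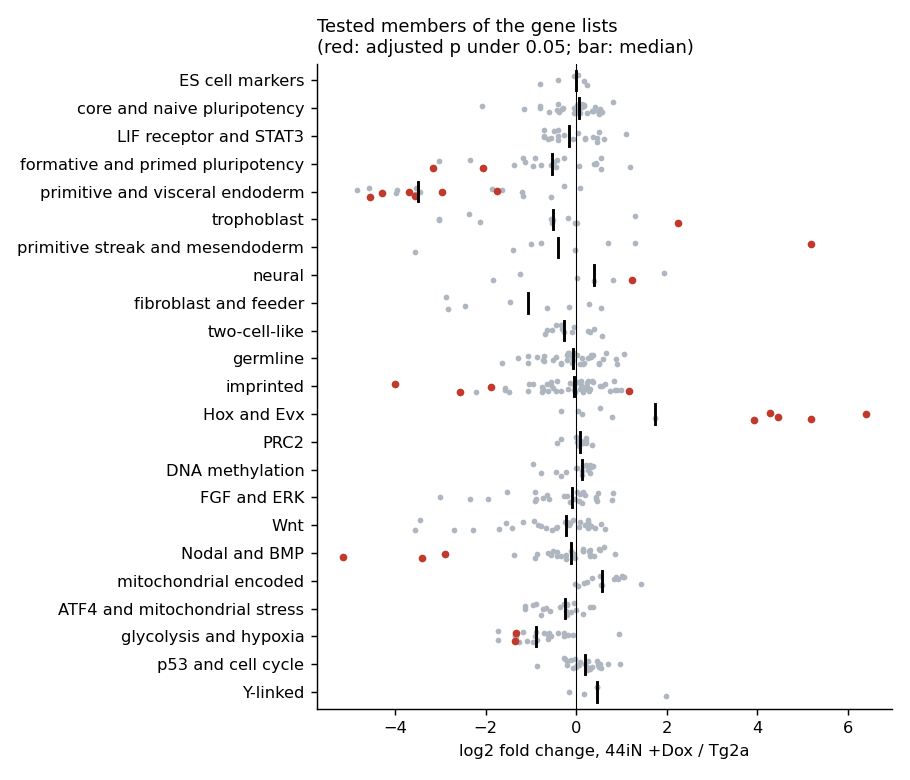
Log2 fold change of 44iN cells with Dox over Tg2a cells for every tested member of the 23 gene lists, with red points for genes that passed edgeR's test and bars at list medians. The endoderm list lies lowest (median −3.49), the Hox and Evx list highest (1.75), and the core and naive pluripotency list around 0 (0.05).

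The other states of 44iN cells show which of the 204 genes stayed different without Dox. For each gene a state was counted with 44iN cells with Dox if its mean lay nearer to theirs than to that of Tg2a cells on the log scale. Of the 76 higher genes 17 were so placed 24 h after Dox removal and 10 in long-term culture, and 56 in no state without Dox. Of the 128 lower genes 112 were so placed after 24 h and 18 in long-term culture. The higher genes thus had mostly left the level with Dox within 24 h, while the lower genes mostly had not. These counts are a description, without a test.

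A group of 7 higher and 16 lower genes stayed with the cells with Dox in both states without it, so their difference from Tg2a did not follow Dox, and 5 and 12 of them did so while uninduced SunTag cells lay with Tg2a. 1500017E21Rik, a noncoding gene on chromosome 19, had 534 and 364 normalised counts with Dox, 626 and 429 after 24 h and 284 and 330 in long-term culture. In Tg2a cells it had 0.531, 0 and 0, and in uninduced SunTag cells 0 in all 3 libraries. Grb10, an imprinted adaptor of insulin receptor signalling, had 2343 and 1538 against 10962, 11009 and 10514 (log2 fold change −2.58, standard error 0.25, adjusted p = 0.0251, edgeR's quasi-likelihood test), with 1260 and 929 after 24 h and 1067 and 1227 in long-term culture. Uninduced SunTag cells had 10058, 6651 and 7687.

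Mest, another imprinted gene, had 1311 and 746 normalised counts against 3478, 3638 and 3566 (log2 fold change −1.89) and 574 and 339 in long-term culture. Zrsr1 moved the other way, with 1479 and 1305 against 592, 582 and 574 (1.16), and it had 1493 and 1686 after 24 h and 1017 and 1141 in long-term culture. H19, the imprinted noncoding RNA beside Igf2, had 97.1 and 107 against 737, 1499 and 2357 (−4.01), but 1674 and 1118 in long-term culture, and 214, 2015 and 1657 in uninduced SunTag cells, where clones differed. Igf2 itself overlapped, with 1243 and 101 against 607, 1708 and 1354. Of 50 tested imprinted genes 1 rose and 3 fell (beside 0.513% and 0.865% of all genes), the list's median was −0.05, and with the offset for GC content 4 rose and 8 fell (beside 4.03% and 6.43%).

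Chromosome 14 differed as a block. Its 525 tested genes had a median log2 fold change of −0.34 (−0.33 with the offset for GC content), with 0 called higher and 8 lower (beside 0.513% and 0.865% of all genes). The medians of the other 19 chromosomes compared (18 autosomes and X) lay between −0.07 and 0.05. Chromosome 14 took 2.42% and 2.31% of the summed normalised counts in 44iN cells with Dox against 3.12%, 3.03% and 2.73% in Tg2a cells, a difference with p = 0.2 in an exact two-sided permutation test over libraries, the smallest that 2 against 3 libraries allow (0.1 one-sided). Chromosomes 2 and 4 reached the same p in this test, at median log2 fold changes of 0.05 and −0.03.

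The difference sat in a segment of 45 to 80 Mb (mm9), whose bounds were chosen after the values were seen. Its 274 tested genes had a median of −0.61 (−0.65 with the offset for GC content, which is 63.9% of the Tg2a level), 246 lay below 0 (89.8%), and in 138 both 44iN libraries lay below all Tg2a libraries (50.4%, beside 16.6% of all genes). Of these genes 7 were called lower (Ephx2, Fbxo16, Itm2b, Loxl2, Ndrg2, Otx2 and Tnfrsf19), beside 0.865% of all genes. With the offset 88 were lower and 0 higher, beside 6.43% and 4.03% of all genes. From 0 to 45 Mb the median was −0.01 over 190 genes, and beyond 80 Mb −0.01 over 61 genes. Of 12 bins of 5 Mb on this chromosome with at least 20 genes 7 had a median below −0.4, beside 1 of the 277 such bins elsewhere (chromosome 3, 140 to 145 Mb, 21 genes, −0.77).

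The lower level of the segment was shared by all 44iN states. Against the mean of Tg2a cells, and without the GC trend, its median was −0.61 and −0.60 in the libraries with Dox, −0.60 and −0.56 after 24 h, −0.54 and −0.54 in long-term culture, and 0.10, −0.01 and −0.09 in the Tg2a libraries themselves. Uninduced and induced SunTag C1 cells had −0.50 and −0.51, and the 3 libraries of clone C2 between −0.33 and −0.31. From 70 to 80 Mb the 65 tested genes had a median of −0.96, 44iN libraries lay between −0.90 and −0.79 and C1 libraries at −0.96 and −1.09, while C2 libraries lay between −0.04 and 0.01. The number of copies of the segment was not measured here.

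**Figure D5:**
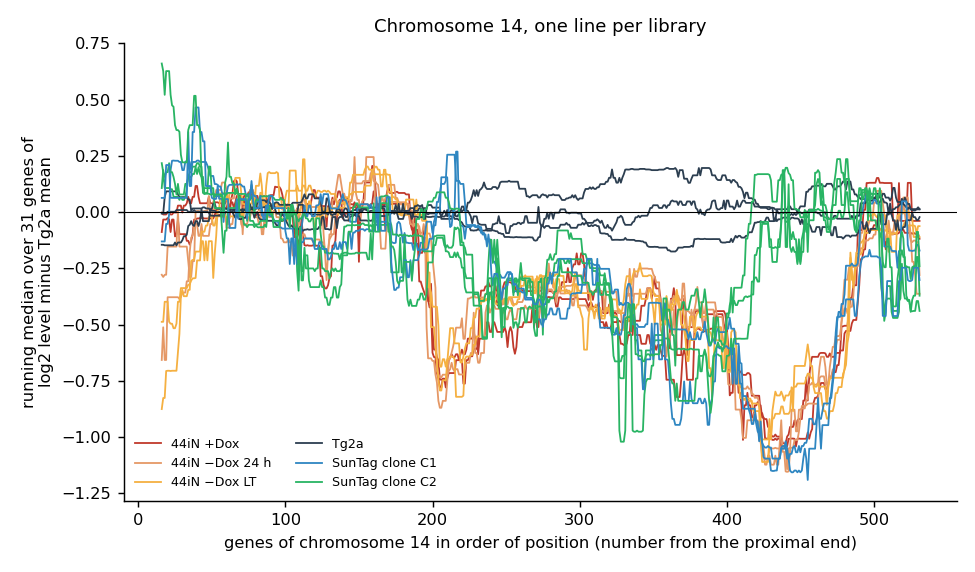
Running median over 31 genes of the log2 level minus the Tg2a mean, for genes of chromosome 14 in order of position. Each line is a library of 44iN cells (all states), Tg2a cells or SunTag clones C1 and C2. The segment from 45 to 80 Mb has a median log2 fold change of −0.61 in 44iN cells with Dox over Tg2a cells.

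Loxl2, a lysyl oxidase of the segment, had the lowest log2 fold change of the called genes there, with 104 and 63.8 normalised counts against 1018, 1053 and 1120 (log2 fold change −3.75, standard error 0.30, adjusted p = 0.0251, edgeR's quasi-likelihood test). It stayed low in all 44iN states (62.4 and 101, then 144 and 107) and was at 948, 1693 and 959 in uninduced SunTag cells, so its difference went past that of the segment. Ndrg2, named after its values were seen, had 109 and 126 against 502, 506 and 501 (−2.20), and 172 and 182 in long-term culture. Gata4 and Tdh also lie in the segment, and their values above were not corrected for its lower level.

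The remaining lists gave few calls. Of 23 lists 14 had 0 called genes by edgeR's quasi-likelihood test, with 267 tested members, of which 61 had an unadjusted p under 0.05 (beside 16.5% of all genes), DESeq2 called 27 (beside 7.15%) and edgeR with the offset for GC content 32 (beside 10.5%). The LIF receptor and STAT3 list had a median log2 fold change of −0.16 over 20 tested genes, FGF and ERK −0.09 over 26, Wnt −0.23 over 32, PRC2 0.09 over 12 and DNA methylation 0.13 over 16. The germline list had −0.08 over 36 genes, two-cell-like −0.28 over 13, fibroblast and feeder −1.06 over 8 (0 called, and 0 with the offset), p53 and cell cycle 0.18 over 25, ATF4 and mitochondrial stress −0.24 over 22, the genes encoded by mitochondrial DNA 0.56 over 15 and Y-linked genes 0.45 over 5. Trophoblast (−0.52 over 12), primitive streak and mesendoderm (−0.40 over 8) and neural (0.40 over 7) each had 1 gene that rose, Tfap2a, Evx1 and Ncam1, and 0 that fell. Their keratins Krt8 (210 and 235 against 501, 838 and 1384) and Krt18 (123 and 85.5 against 383, 746 and 1265) and the streak gene T (6.94 and 4.67 against 30.3, 93.2 and 75.5) did not overlap between the groups, missed edgeR's test and passed it with the offset.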

How the data were processed

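RNA-seq of 44iN cells with Dox and of Tg2a cells was analysed, with other 44iN and SunTag libraries where named. Tg2a cells in 2i and the ChIP-seq and ATAC-seq were not used here. The authors aligned stranded reads to mm9 with STAR and deposited RSEM estimated counts rounded to whole numbers. They also deposited a signal, in which DESeq2 size factors of the whole series scale the estimated counts, and which is called normalised counts here. CASAVA 1.8 is named in the submitters' processing notes. The table lists 37620 genes.

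Libraries were grouped by their labels. Genes that reached 10 normalised counts in all libraries of either group were tested on the estimated counts with edgeR 4.0.16 (R 4.3.3), TMM factors and the quasi-likelihood test, without covariates, and called at a Benjamini-Hochberg adjusted p-value under 0.05. Differences are log2 fold changes with standard errors, and 95% intervals were read against 2-fold. The offset for GC content was a loess curve per library (span 0.3). DESeq2 1.42.0, glmTreat, other scalings and filters, leaving out each library, a replicate block, thinning to the smallest library and a joint fit of 4 groups were alternatives. The fit with uninduced SunTag cells, the GC offset in the joint fits and in the distances, and the SunTag response were added after the data were seen. Where all libraries of a group had at most 3 counts, no fold was given. Errors hold counting error and the spread of these libraries, no more.

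The comparison, its members and the 23 gene lists were chosen with earlier results of these data known. Genes were named by rule: Nanog and a set of pluripotency genes, the 12 called genes that rose most and the 12 that fell most (groups not overlapping, higher mean of 100 normalised counts or more), and up to 4 called members of each list. Hoxa7, Hoxa9, Hoxb9, Hoxc13, Hoxd8, Hoxd13, 5730457N03Rik, Rcn1, Itga9, Gata4, Gata6, Cubn, Amn, Col4a1, Lamb1, Hhex, Lamc1, Fgf5, Nodal, Hk2, Gapdh, Igf2, Krt8, Krt18, T, Tbx3, Tdh and the genes of chromosome 14 other than Loxl2 and Otx2 were named after their values were seen. List symbols not matched were Foxf1, Sox1, Map2, Kcnq1ot1, Pkm, Uba1y and 8 of the two-cell-like list.

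On simulated counts of 14806 genes with the real means and depths, of which 200 were changed, edgeR recovered 10% of those set to a log2 fold change of 1 and 69% of those set to 2 and made 84 calls, 5.95% of them false. Promoters were read from mm9. Python 3.11.15 served for tables and figures (numpy 2.4.6, pandas 2.3.3, scipy 1.17.1, matplotlib 3.10.9). Some genes are not reported here.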

Additional observations from a re-analysis of the deposited data

How the results depend on the processing

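No called gene among those named changed direction under the alternatives run. The 204 calls (76 higher, 128 lower) became 97 (39 and 58) with glmTreat against a fold of 1.5, 1058 (354 and 704) with DESeq2, 374 with 273 lower without a filter, 100 (34 and 66) after thinning, 1544 (595 and 949) with the GC offset, 723 (245 and 478) in the joint fit and 314 with 203 lower in the fit with SunTag cells, and with upper quartile factors 286 (77 and 209). Leaving out 1 library gave 0 to 135 calls (0 to 45 higher, 0 to 90 lower), and without 44iN replicate 2 or Tg2a replicate 3 more were higher than lower (25 and 20, 18 and 15). Genes within 2-fold numbered 9232 with the GC offset and 3356 to 5167 with 1 library left out. The replicate numbers did not pair the samples (correlation of deviations 0.54 and −0.43), and a replicate block gave 928 calls (264 and 664). With the block the lists had 16 endoderm, 7 glycolysis, 8 imprinted and 6 formative genes lower and 3 pluripotency genes called.

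Endoderm genes lower (6) numbered 16 with DESeq2, 10 with upper quartile factors, 14 without a filter, 16 with the GC offset, 15 jointly and 11 with SunTag cells. Nodal and BMP genes (3) numbered 6 with the GC offset and 1 with SunTag cells. Glycolysis genes (2) numbered 0 with glmTreat, DESeq2's size factors, filterByExpr or thinning, 10 with DESeq2, 4 with upper quartile factors or no filter, 12 with the GC offset, 5 jointly and 1 with SunTag cells. Imprinted genes (3) numbered 7 with DESeq2 and 8 with the GC offset, and formative genes (2) 9, 5 and, jointly, 4. Pluripotency genes called (0) numbered 3 with DESeq2, 3 with the GC offset and 2 jointly. With 1 library left out these lists gave 0 to 9, 0 to 2, 0 to 1, 0 to 2, 0 to 1 and 0 to 1, and Hox and Evx genes 0 to 5. The median of chromosome 14 was −0.52 without a filter and −0.43 to −0.27 with 1 library left out, and that of its segment −0.80 and −0.72 to −0.60. These causes were not tested. Of 768 values of 48 named genes under alternatives, 162 lost their call, 4 gained one (Dppa3) and 3 uncalled ones moved (Pou5f1 and Esrrb without 44iN replicate 2, Sox2 without 44iN replicate 1). At this depth and spread a 2-fold difference was mostly out of reach of the test.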
